A study of Mus musculus with 8 samples.

Results

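The Hox genes encode homeodomain transcription factors and lie in the clusters A to D. Every Hox gene of these clusters that the array files named was taken, by gene name alone, which gave 38 genes on 43 probes among 29770 named genes or transcripts on 39429 probes. Clusters A and B each gave 10 members and clusters C and D each gave 9. The study measured RNA of GFP-positive cells sorted from kidney rudiments of NMRI mouse embryos at E11.5 on 1-colour Agilent arrays. Controls carried 1 GFP allele at the Tbx18 locus, Tbx18(GFP/+), on 3 arrays. Null embryos carried 2 such alleles, Tbx18(GFP/GFP), also on 3 arrays. The fusion genotype, Tbx18(cre/+);Hprt(CAG:Tbx18VP16-GFP), was measured on 2 arrays. In it, Cre from the Tbx18 locus switches on, from the Hprt locus and the CAG promoter, a fusion of Tbx18 with the VP16 activation domain together with GFP. Tbx18 belongs to the T-box family, acts mostly as a repressor and marks the mesenchyme around the early ureter. The controls of both comparisons were therefore heterozygous for Tbx18. GFP marked cells by activity of the Tbx18 locus in controls and nulls, and by Cre activity in the fusion genotype. Each array held a pool of about 100000 cells from embryos of both sexes, gathered over several sorts.

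In each cluster the gene order along the chromosome matches the order in which the genes act along the body axis. Low-numbered genes are switched on early and reach far towards the head, and high-numbered genes act towards the tail. Retinoic acid opens the low-numbered end, Cdx factors the middle, and polycomb proteins keep silent genes closed. In the kidney rudiment, Hoxa11, Hoxc11 and Hoxd11 act with Eya1 and Pax2 on Six2 and Gdnf in the nephrogenic mesenchyme, and the paralogue group of Hoxd10 acts in the stroma.

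Because members of cluster B moved together, the 250 bases before the start site are shown for the 3 of them matched in the RefSeq promoter set (GRCm38.p6, plus strand). The Hoxb1 sequence is chr11:96365508-96365757, the Hoxb4 sequence chr11:96318017-96318266 and the Hoxb8 sequence chr11:96281655-96281904. Capitals mark matches, on either strand, to the promoter box CCAAT, to the TATA box as TATAAA, or to a joint Pbx and Hox site as TGATNNAT.
Hoxb1: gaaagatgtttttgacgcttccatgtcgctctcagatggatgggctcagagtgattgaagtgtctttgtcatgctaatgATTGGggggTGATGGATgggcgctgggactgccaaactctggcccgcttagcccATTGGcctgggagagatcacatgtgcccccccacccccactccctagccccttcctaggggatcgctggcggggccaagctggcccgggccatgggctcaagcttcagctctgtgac
Hoxb4: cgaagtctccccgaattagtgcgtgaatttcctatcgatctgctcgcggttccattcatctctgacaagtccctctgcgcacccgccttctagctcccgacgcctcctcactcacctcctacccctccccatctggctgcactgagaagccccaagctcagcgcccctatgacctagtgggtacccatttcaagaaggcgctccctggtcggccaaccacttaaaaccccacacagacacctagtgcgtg
Hoxb8: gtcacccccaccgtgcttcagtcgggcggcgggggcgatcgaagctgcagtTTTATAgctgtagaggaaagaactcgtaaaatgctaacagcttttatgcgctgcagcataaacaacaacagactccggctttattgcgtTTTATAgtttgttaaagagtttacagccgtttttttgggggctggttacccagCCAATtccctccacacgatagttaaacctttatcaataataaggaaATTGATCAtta
No capital stretches shared bases in these sequences. In Hoxb1, the CCAAT matches lay at -171 and -117 from the start and the TGATNNAT match at -162. In Hoxb8, TATAAA matches lay at -199 and -110, CCAAT at -57 and TGATNNAT at -11, and Hoxb4 held none of these. CCAAT was in 33.8% of all 32851 promoter windows, TATAAA in 12.4% and TGATNNAT in 7.68%. AGGTGTGA, the T-box site, was in 1.12% of windows and in none of these 3. In all, 22 members matched the promoter set. The matches are descriptions of letters and not of bound sites.

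Levels are log2 signals relative to the array's 75th percentile, so 0 is that percentile and a difference of 1 is a doubling. Of the 38 members, 34 were well above background on all 8 arrays and Hoxb1 on 7, missing only control 1. Hoxb13 was well above background only on null array 3, at -4.12, and Hoxc12 only on control array 3, at -4.88, and Hoxc13 on none. These 3 tail-end genes were not tested, which left 35 members in each comparison.

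Between 60.1% and 66.0% of probes were well above background on an array, and no spot was saturated. Tbx18 itself was at -0.02, 1.20 and 1.04 in controls, at -2.40, -1.34 and -2.35 in nulls and at 1.34 and 1.06 in the fusion genotype, so every null array was below every other array. Pairs 1 and 2 of control and null shared a slide and pair 3 lay on a second slide, labelled from 10 ng in place of 20 ng of RNA. The fusion arrays lay on a slide of their own, of another array design, so slide, design and genotype cannot be told apart for them. All 7 markers of the mesenchyme around the ureter were well above background on all 8 arrays. P-values set each difference against the spread between these cell pools. In comparisons with the fusion genotype, that spread was pooled over all groups.

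In cells without Tbx18, all 9 tested genes of cluster B were higher than in controls in each of the 3 pairs, with a median difference of 1.13 on the log2 scale. In the other clusters the median difference was -0.27 over 10 genes of cluster A, 0.07 over 7 of cluster C and 0.18 over 9 of cluster D. Over all 19522 genes tested the median was 0.01, and 19.1% were higher in every pair. Among the 35 members, 24 had a higher mean in nulls, against 51.3% of genes, and 20 were higher and 5 lower in every pair, against 19.1% and 17.4% of genes. In bulk RNA, fewer cells of a type and less RNA per cell cannot be told apart. The median of cluster B was between 1.09 and 1.22 in all 23 settings tried, with 9 of 9 members higher in each. Settings that changed only the filter, or added a block without leaving out arrays, left each difference as it was. Their median of 1.13 is therefore no further support.

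Without a pair term, limma called 0 of 35 members at an adjusted p under 0.05, and 0% of all genes. At an unadjusted p under 0.05 there were 7 members, all of cluster B, and 4.82% of all genes. Same-numbered control and null pools deviated together, so the pair was also fitted as a block. With the block 5 members were called, Hoxb1, Hoxb2, Hoxb4, Hoxb5 and Hoxb6, all higher in nulls, against 0.482% of genes called higher and 0.943% called in either direction. Without pair 1 or without pair 2 the blocked fit called only Hoxb1 of the members, where 15 of 19126 and 11 of 18483 genes were called. Without pair 3 it called 8 members, where 903 of 18617 genes were called. The null arrays all lay above the control arrays for 8 of 35 members, against 4.18% of genes. They were 7 members of cluster B and Hoxc4. No member lay wholly below, against 3.58% of genes.

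**Figure D1:**
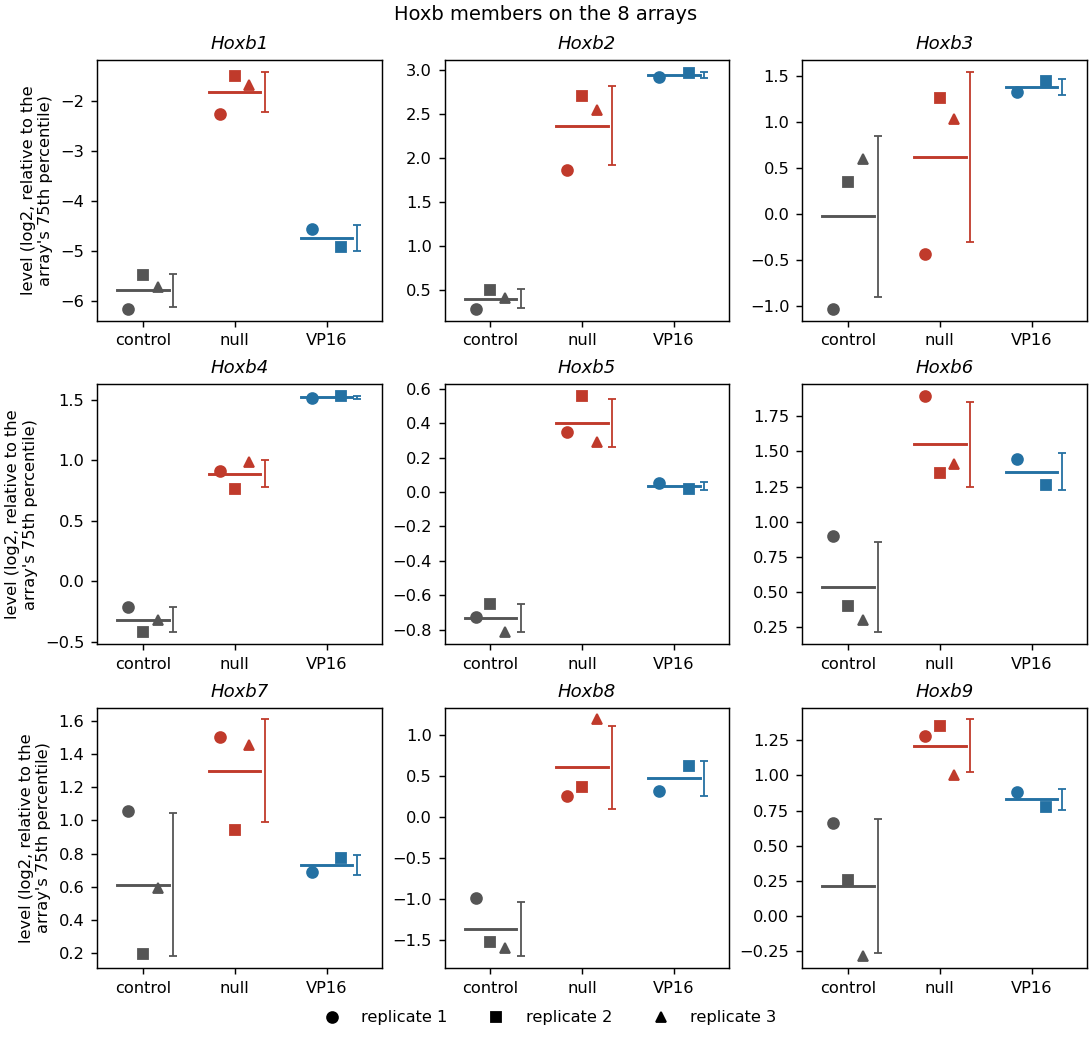
Level of 9 Hoxb genes on each of 8 arrays (log2 signal relative to the array's 75th percentile), 1 panel per gene, with points for arrays and bars for group means. Null arrays lie above control arrays in 7 panels, and for Hoxb1 the fusion arrays lie between the other groups.

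Hoxb1, the lowest-numbered gene of its cluster and best known from the hindbrain, had the largest difference among the 35 members. Its probe lies at chr11:96228450-96228510 (mm9, plus strand). The level was -6.16, -5.49 and -5.73 in controls, -2.27, -1.50 and -1.69 in nulls and -4.56 and -4.92 in the fusion genotype. The 3 groups did not overlap. Nulls exceeded controls by 3.97 ± 0.30 (SE), with limma's adjusted p = 0.0573 without and 0.0132 with the pair block. Within pairs the difference was 3.89, 3.99 and 4.04. On control 1 the probe was not well above background, and with normexp background the difference was 2.32.

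Hoxb2 lies next to Hoxb1 and acts in hindbrain and pharyngeal arches (probe chr11:96215122-96215181, mm9). It stood at 0.29, 0.50 and 0.42 in controls, at 1.86, 2.70 and 2.54 in nulls and at 2.91 and 2.96 in the fusion genotype. Controls were lowest and the fusion arrays highest, with no overlap. Nulls exceeded controls by 1.96 ± 0.28 (SE), with limma's adjusted p = 0.113 without and 0.0322 with the block.

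Hoxb4, a gene of the middle of the body axis also known from blood stem cells, was at -0.22, -0.42 and -0.32 in controls, at 0.91, 0.76 and 0.99 in nulls and at 1.51 and 1.53 in the fusion genotype (probe chr11:96182885-96182944, mm9). The groups again formed 3 separate steps. The null difference was 1.21 ± 0.22 (SE), with limma's adjusted p = 0.171 without and 0.0403 with the block, and pairs gave 1.13, 1.19 and 1.30.

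Hoxb5, which acts in the neural crest of the gut and in the lung, was at -0.73, -0.65 and -0.82 in controls, at 0.35, 0.56 and 0.29 in nulls and at 0.05 and 0.02 in the fusion genotype (probe chr11:96167130-96167189, mm9). Here the fusion arrays fell between the other groups. The null difference was 1.13 ± 0.22 (SE), with limma's adjusted p = 0.206 without and 0.0418 with the block. Hoxb6, a gene of limb bud and lateral mesoderm, was at 0.90, 0.40 and 0.30 in controls, at 1.90, 1.35 and 1.41 in nulls and at 1.45 and 1.26 in the fusion genotype (probe chr11:96162563-96162622, mm9). All null and fusion arrays lay above all controls and overlapped each other. Its null difference was 1.02 ± 0.28 (SE), with limma's adjusted p = 0.461 without and 0.0483 with the block, and pairs gave 0.999, 0.95 and 1.11.

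Hoxb8, a gene of the trunk and of blood progenitors, was at -0.99, -1.52 and -1.59 in controls, at 0.26, 0.37 and 1.19 in nulls and at 0.32 and 0.63 in the fusion genotype (probe chr11:96146576-96146635, mm9). Controls were lowest, and the other groups overlapped. The null difference of 1.97 ± 0.33 (SE) did not pass either fit of limma, with adjusted p = 0.145 without and 0.0785 with the block. The pairs gave 1.25, 1.89 and 2.78.

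The remaining 3 members of the cluster differed less or varied more between pools. Hoxb9, a gene of thorax and tail, was at 0.67, 0.26 and -0.28 in controls, at 1.28, 1.35 and 1.0004 in nulls and at 0.88 and 0.78 in the fusion genotype. Its null arrays lay above all controls, by 0.998 ± 0.30 (SE), with limma's adjusted p = 0.585 without and 0.0923 with the block. Hoxb7, also expressed in ureteric epithelium, was at 1.05, 0.19 and 0.59 in controls and at 1.50, 0.94 and 1.45 in nulls. These ranges overlapped although each pair differed the same way, by 0.45, 0.75 and 0.86. Hoxb3, at -1.03, 0.35 and 0.61 in controls and at -0.44, 1.27 and 1.04 in nulls, overlapped too, because both pools of pair 1 were low. Its pairs gave 0.59, 0.92 and 0.43, and both of its probes differed by 0.65 between the group means.

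**Figure D2:**
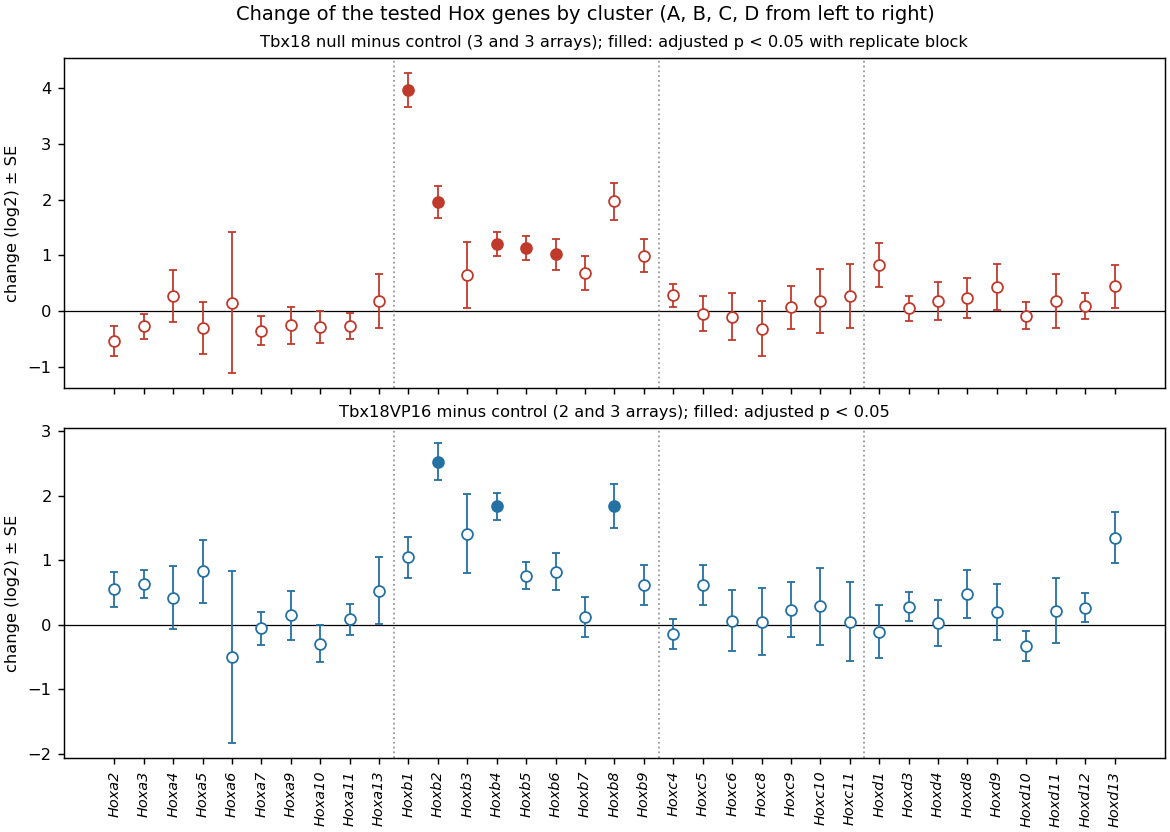
Difference in log2 level from control for 35 Hox genes in cluster order, with bars of 1 SE, for nulls (upper panel, filled where the adjusted p with the pair block is under 0.05) and for the fusion genotype (lower panel, filled where the adjusted p is under 0.05). The filled points, 5 above and 3 below, all belong to cluster B, but the panels use different fits. Without the block, 0 points would be filled above. With it, 5 would be filled below, among them Hoxd13 of cluster D. The bars come from the fit without the block.

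Outside cluster B, no member was called in nulls with or without the block. The 26 members of clusters A, C and D had a median difference of 0.08, from -0.53 for Hoxa2 to 0.82 for Hoxd1, and the smallest blocked adjusted p from limma was 0.196. In cluster A, 7 of 10 members had a lower mean in nulls, with values between -0.53 and -0.26, and 5 of the 10 were lower in every pair. In clusters C and D, 12 of 16 had a higher mean. For 24 of the 26, the control pools themselves spanned a wider range than the difference between nulls and controls, as against 2 of the 9 in cluster B. That range includes spread that same-numbered pools shared, so it does not measure the spread of the differences within pairs. Hoxd11, which acts with Hoxa11 in the kidney, was at 1.99, 3.34 and 2.23 in controls and at 2.05, 3.50 and 2.55 in nulls. Its pair 2 pools were high in both genotypes. Hoxa11 differed by -0.27 and Hoxc11 by 0.27, neither of which passed.

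**Figure D3:**
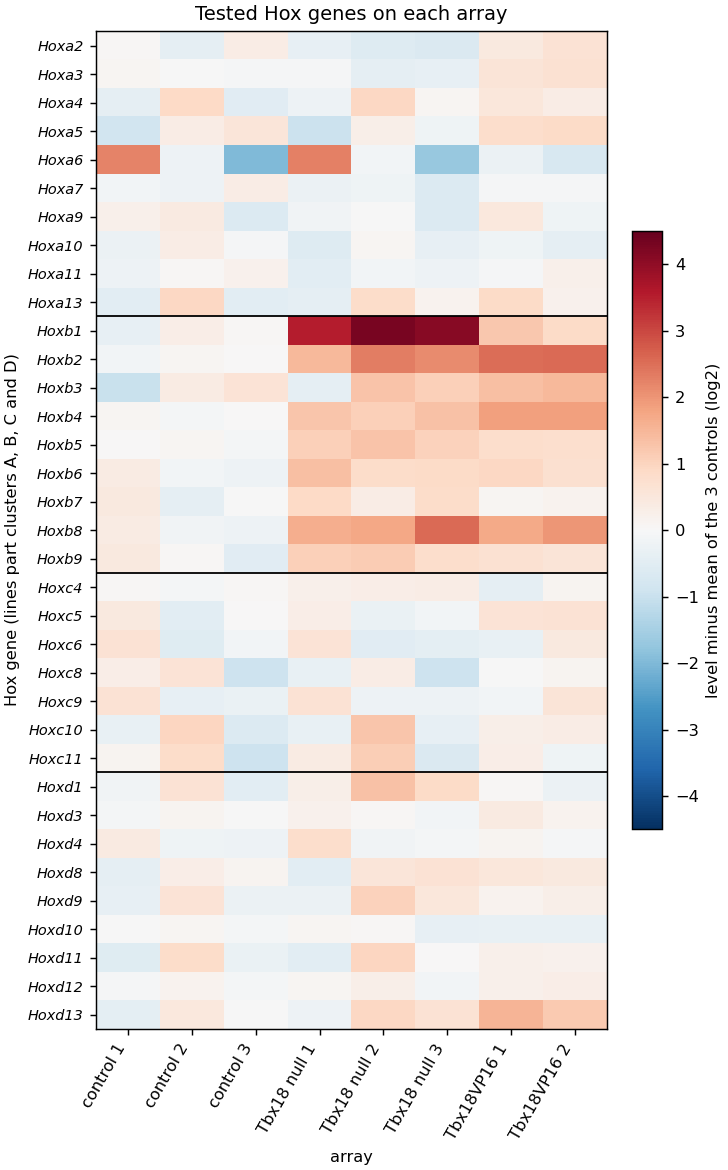
Level of 35 tested Hox genes on 8 arrays minus the mean of the 3 controls (log2, red higher, blue lower), in rows by cluster. The null and fusion columns are red across cluster B except for Hoxb3 on null array 1, and Hoxa6 follows the pair number and not the genotype.

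The spread between pools differed widely among members. The range over the 3 control pools had a median of 0.86 on the log2 scale, from 0.15 for Hoxc4 to 4.21 for Hoxa6, and 13 of 35 members had a range over 1. Hoxa6 was at -0.10, -2.54 and -4.32 in controls and at -0.06, -2.43 and -4.01 in nulls. Same-numbered pools were close and the numbers far apart. Hoxc10, a gene of the lower trunk, was at 1.32, 2.62 and 1.04 in controls and at 1.33, 2.89 and 1.30 in nulls, again high in pair 2 whatever the genotype. By cluster, 5 of 10 members of A, 1 of 9 of B, 5 of 7 of C and 2 of 9 of D had a control range over 1. The narrow end held members of every cluster. Beside Hoxc4 these were Hoxb5 and Hoxa3 at 0.17, Hoxd10 at 0.18, Hoxd3 at 0.19, and Hoxb4 and Hoxb2 at 0.21.

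In cells with the VP16 fusion, all 9 tested genes of cluster B were also higher than in controls, with a median of 1.05, and in these cells Hoxb2 and not Hoxb1 had the largest difference. The medians were 0.28 for cluster A, 0.06 for C and 0.22 for D, against -0.14 over all 20398 genes. That median of all genes was -0.02 under quantile normalization, -0.02 with no filter on dim probes and -0.13 under median scaling. All 9 stayed higher in 20 of 21 settings, and 8 of 9 when control 2 was left out. Limma called 3 of 35 members, all higher, where 5.34% of all genes were called in either direction, 2.04% higher and 3.29% lower. In all, 29 of 35 members had a higher mean than in controls, against 40.9% of genes. At an unadjusted p under 0.05 there were 9 members, against 22.8% of genes. Of all genes called, 417 were higher and 672 lower, or 562 and 562 with the authors' deposited values. The fusion arrays lay wholly above the controls for 16 of 35 members, against 17.4% of genes, and wholly below for 1, against 30.3%. They did so for 8 of the 9 members of cluster B.

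Hoxb2 was higher than in controls by 2.53 ± 0.29 (SE), a 5.78-fold difference, with limma's adjusted p = 0.00433. Hoxb4 was higher by 1.84 ± 0.21 (SE), with limma's adjusted p = 0.00438, and Hoxb8 by 1.84 ± 0.35 (SE), with limma's adjusted p = 0.025. Leaving out either fusion array left 1 array in the group, whose spread was then taken from the other groups. It ended these calls, as it did most calls over all genes, so the loss is not particular to these members. Without control 2 or control 3 the Hoxb8 call was lost, with adjusted p = 0.0837 and 0.0566. Hoxb1 was higher than in controls by 1.05 ± 0.32 (SE), with limma's adjusted p = 0.105, and by only 0.12 with normexp background. Hoxb3 stood at 1.33 and 1.45, above all controls, by 1.41 ± 0.61 (SE), with limma's adjusted p = 0.218, while its second probe differed by 0.66. Hoxb5, Hoxb6 and Hoxb9 differed by 0.76, 0.82 and 0.62 and Hoxb7 by 0.12, none of which passed.

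Among the other clusters, Hoxd13, the tail-end gene of cluster D that patterns digits and genital tissue, had the largest difference (probe chr2:74509248-74509307, mm9, plus strand). It was at 0.50, 1.43 and 0.92 in controls, at 0.73, 1.87 and 1.59 in nulls and at 2.47 and 2.14 in the fusion genotype. The fusion arrays were above all others. The difference from controls was 1.35 ± 0.40 (SE), with limma's adjusted p = 0.0963, and it passed, at 0.0377, when null array 1 was left out. Hoxa5 was above all controls too, by 0.83, and did not pass.

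Both comparisons use the same 3 control arrays, so their values are given side by side only. The mean was above control in both genotypes for 9 of 9 members of cluster B, 2 of 10 of A, 3 of 7 of C and 7 of 9 of D. Hoxb8 differed by 1.97 and 1.84, Hoxb6 by 1.02 and 0.82 and Hoxb7 by 0.69 and 0.12, nulls first.

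The fusion and null genotypes were also compared directly. Hoxb1 was the only member called, at a difference of -2.92 ± 0.32 (SE) from nulls, with limma's adjusted p = 0.00682, where 3.68% of genes were called, 2.5% lower and 1.18% higher. In all, 21 members had a higher mean than in nulls, against 40% of genes. At an unadjusted p under 0.05 there were 5 members, against 22% of genes. The call was lost without either fusion array, as were nearly all calls over all genes, because 1 array was then left in the group. Median differences were 0.16 over the 35 members and -0.15 over all 20398 genes. Fusion arrays lay wholly above null arrays for 10 members, against 16.3% of genes, and wholly below for 6, against 31.9%. In cluster B, Hoxb2, Hoxb3 and Hoxb4 lay above and Hoxb1, Hoxb5, Hoxb7 and Hoxb9 below.

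In cluster A, the genes Hoxa2, Hoxa3 and Hoxa5 were lower in nulls than in controls on average and higher in the fusion genotype. Hoxa2, which patterns the second pharyngeal arch, was at 0.06, -0.40 and 0.32 in controls, at -0.38, -0.60 and -0.64 in nulls and at 0.43 and 0.66 in the fusion genotype (probe chr6:52112595-52112654, mm9, minus strand). Fusion arrays were highest, and nulls overlapped controls. The fusion genotype exceeded nulls by 1.08 ± 0.27 (SE), with limma's adjusted p = 0.0683. Hoxa3, a gene of thymus and parathyroid development, was at 1.88, 1.74 and 1.71 in controls, at 1.72, 1.37 and 1.42 in nulls and at 2.36 and 2.46 in the fusion genotype (probe chr6:52119087-52119146, mm9, minus strand). The fusion arrays again lay above all others. The difference from nulls was 0.91 ± 0.22 (SE), with limma's adjusted p = 0.0634, and it passed under quantile normalization, at 0.0277, and with the authors' deposited values, at 0.0244. A second probe named Hoxa3, at chr6:52149150-52149208 (mm9) near Hoxa5, differed by 0.11. Hoxa5, known from lung development, was at 0.39, 1.58 and 1.80 in controls, at 0.29, 1.52 and 1.05 in nulls and at 2.05 and 2.12 in the fusion genotype. Pair 1 was low in both of the first groups. The fusion genotype exceeded nulls by 1.13 ± 0.49 (SE), with limma's adjusted p = 0.223.

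**Figure D4:**
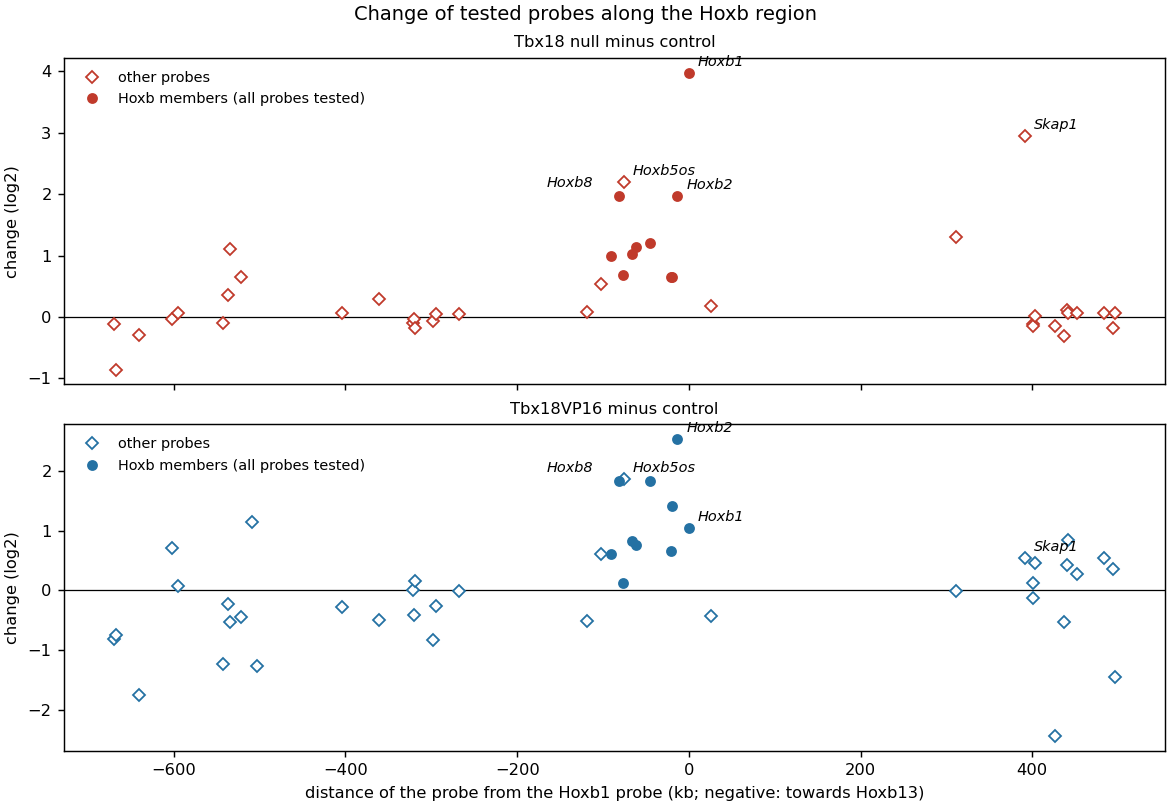
Difference from control (log2) of each tested probe against its distance in kb from the Hoxb1 probe, for nulls (upper panel) and the fusion genotype (lower panel), with Hoxb members filled and other probes open. In nulls the Hoxb members lie between 0.65 and 3.97, and the median of 31 flanking probes is 0.04.

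The differences were then placed along chromosome 11. Within cluster B, 3 other probes were tested. Hoxb5os, a noncoding transcript on the minus strand (probe chr11:96152394-96152453, mm9), was at 0.38, -1.17 and -0.74 in controls, at 2.16, 1.41 and 1.46 in nulls and at 1.34 and 1.37 in the fusion genotype. All null and fusion arrays lay above all controls. Nulls exceeded controls by 2.19 ± 0.44 (SE), with limma's adjusted p = 0.227 without and 0.0318 with the block, and the fusion genotype by 1.87, with adjusted p = 0.0561. Gm53 beyond Hoxb9 differed by 0.54 in nulls and did not pass. The third of these probes differed by only 0.08 in nulls. In the fusion genotype, the lowest of the 3 differed by -0.51 from controls. Within 500 kb on either side of the cluster, 31 probes were tested in nulls, with a median of 0.04, a range from -0.86 to 2.94 and 17 of 31 higher, and 0 were called when each probe was tested on its own, with or without the block. The highest was a probe of Skap1, an adaptor protein of T cells, 392 kb beyond Hoxb1 (chr11:96620198-96620257, mm9). It was at -5.67, -5.57 and -5.41 in controls, at -3.49, -2.76 and -1.59 in nulls and at -4.82 and -5.21 in the fusion genotype. In the fit over genes, nulls exceeded controls by 2.94 ± 0.46 (SE), with limma's adjusted p = 0.118 without and 0.0453 with the block.

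Proteins that bind DNA with Hox proteins, of the Pbx, Meis and Pknox families, were all tested. Of 9 cofactor genes tested, 6 had a lower mean in nulls, the median was -0.44, and none passed either fit, at values of -0.67 for Pbx3, -0.53 for Pknox2 and -0.48 for Meis1. Of 23 tested genes that act upstream of the clusters, 14 were higher and 9 lower in nulls, with a median of 0.07. With the block, 2 of them passed. Cyp26a1, which degrades retinoic acid and is itself switched on by it, was higher by 2.30, with limma's adjusted p = 0.064 without and 0.0223 with the block. Rdh10, an enzyme of retinoic acid synthesis, was higher by 1.45, with adjusted p = 0.156 and 0.0318. In the fusion genotype limma called Rdh10, higher by 1.39 with adjusted p = 0.0213, and Crabp1, which binds retinoic acid in the cell, higher by 1.77 with adjusted p = 0.00915. Between the fusion genotype and nulls, Cyp26a1 differed by -1.53, with limma's adjusted p = 0.0144.

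Of 14 kidney genes known as partners or targets of Hox proteins, 11 had a higher mean in nulls, with a median of 0.79. Wt1, a transcription factor of the nephrogenic mesenchyme, was the one that passed with the block, higher by 1.66 with limma's adjusted p = 0.0395. Six2, the Hox target that keeps nephron progenitors undifferentiated, differed by 2.52, Itga8 by 1.66 and Osr1 by 0.96, none of which passed. In the fusion genotype limma called 2 of the 14, both higher, against 2.04% of all genes called higher. Wt1 was among them, higher by 2.61 with adjusted p = 0.00439.

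**Figure D5:**
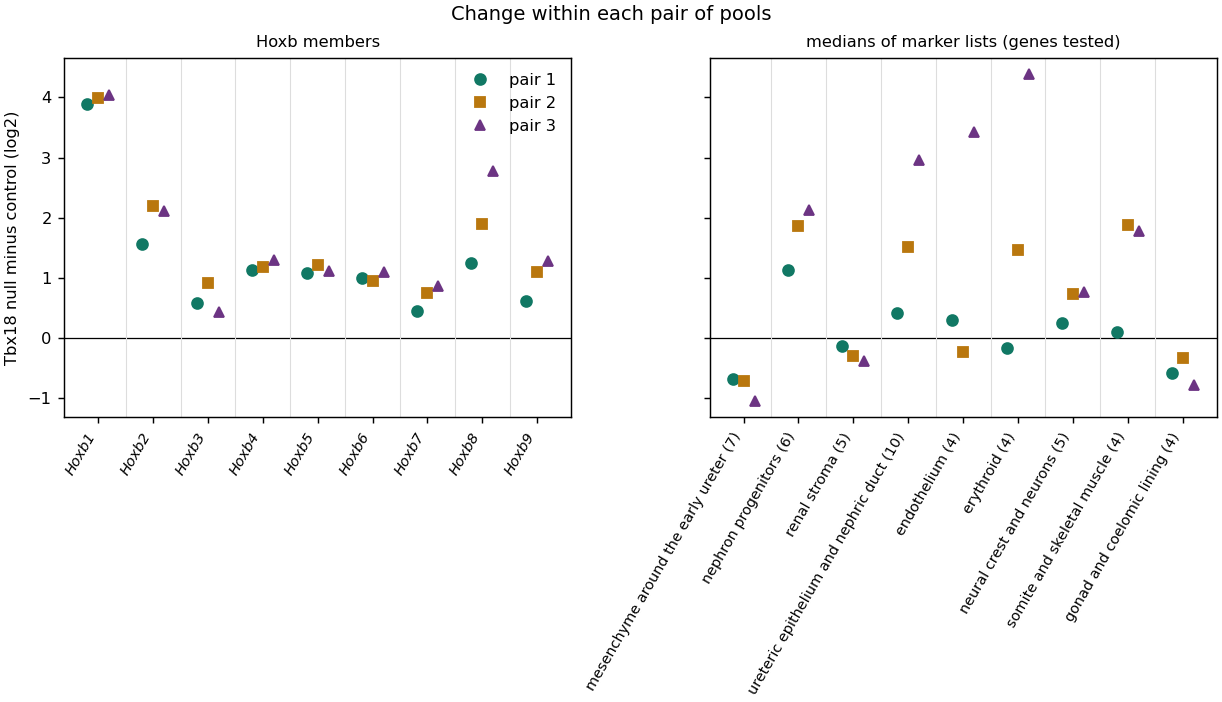
Null minus control (log2) within each of the 3 pairs, for 9 Hoxb genes (left) and for the medians of 9 marker lists (right, number of genes tested in brackets). Hoxb1, Hoxb4, Hoxb5 and Hoxb6 differ by nearly the same amount in each pair. Hoxb7, Hoxb8 and Hoxb9 rise from pair 1 to pair 3, and Hoxb2 and Hoxb3 are highest in pair 2. The nephron progenitor, ureteric, erythroid and neural medians also rise from pair 1 to pair 3. The erythroid, endothelial and ureteric medians spread most widely.

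Markers of other cells were measured in the same fits. In nulls, 5 of 6 nephron progenitor markers had a higher mean, with pair medians of 1.14, 1.87 and 2.13. Of 7 markers of the mesenchyme around the ureter, 6 had a lower mean, with pair medians of -0.68, -0.70 and -1.04. This second list includes Tbx18 itself, whose lower level was set by the null genotype. With the block, 2 of each list passed. The summed level of the nephron progenitor list ranged from 4.77 to 5.32 in controls, from 5.50 to 5.83 in nulls and from 5.77 to 5.87 in the fusion genotype. Of 10 markers of ureteric epithelium, 9 had a higher mean in nulls and none passed either fit, with pair medians of 0.43, 1.52 and 2.97 and summed levels of 1.35 to 1.99 in controls, 1.75 to 3.73 in nulls and 2.04 to 2.26 in the fusion genotype. Erythroid pair medians were -0.16, 1.47 and 4.38, with 4 of 4 tested markers higher and summed levels of 2.59 to 4.81, 2.36 to 8.80 and 1.33 to 2.82 in the same order. Endothelial pair medians were 0.31, -0.23 and 3.42. Neural crest and neuronal markers, 4 of 5 higher, had pair medians of 0.25, 0.73 and 0.78 and summed levels of 2.07 to 2.49, 2.72 to 3.22 and 2.53 to 2.77. The 2 tested platelet markers had pair medians of 1.04, 1.64 and 3.60. Somite and muscle pair medians were 0.10, 1.89 and 1.78, and its markers Pax7 and Myf5 were well above background on no array. None of the erythroid, endothelial, platelet, neural or somite markers passed either fit in nulls. The part of these cell types in the Hoxb differences was not tested.

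In the fusion genotype, all 4 platelet markers passed, with a median difference of 6.32 and summed levels of 2.08 to 3.06 against -5.32 to -3.95 in controls and -4.76 to 0.60 in nulls. All 6 nephron progenitor markers had a higher mean, 2 of them called, with a median of 1.19. Of 7 markers of the mesenchyme around the ureter, 5 had a lower mean, none called, with a median of -0.29. Their summed level was 5.17 to 5.19, against 6.15 to 6.47 in controls and 5.18 to 6.04 in nulls. Of 3 tested white blood cell markers, 2 had a higher mean, with 0 called without the replicate block and 2 with it. The 4 tested endothelial markers had a lower mean, 1 of them called, with a median of -0.43, and so had 4 erythroid markers, none called, with a median of -1.21. The part of these cells in the Hoxb2, Hoxb4 and Hoxb8 differences was not tested.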

How the data were processed

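Arrays of 8 cell pools were read from the deposited scanner files. Their values are spot intensities that the authors extracted with Agilent Feature Extraction 10.7.3.1, per the submitters' processing notes, background-corrected per the file headers, on mm9 probes. Here each array's spots of a probe were averaged, control spots and outlier flags left out, and log2 of the processed intensity taken minus the array's 75th percentile (floor 1). The authors' deposited value table was used only as an alternative, on the log2 scale.

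Probes were named through accession (28356), symbol (3733) or synonym (267) in a RefSeq gene table, and 7073 kept the file's name. A gene was tested on its brightest probe if that was well above background on at least 3 of 6 arrays (null against control, 19522 genes) or 2 of 8 (20398 genes). Testing used lmFit and eBayes of limma 3.58.1 in R 4.3.3, 2-sided, with Benjamini-Hochberg adjustment over all genes. Comparisons with the fusion genotype used all 8 arrays, so that its 2 arrays borrowed the spread of the other groups. Scripts were tested on simulated data.

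Same-numbered control and null deviations correlated at 0.827, 0.708 and 0.429, so these numbers were taken as pairs. Pools of unlike number correlated between -0.753 and 0.320, the highest for control 3 with null 2, so pair 3 stands out least. Same-numbered deviations of the fusion arrays correlated between -0.264 and 0.0488, and their numbers were not taken as pairs. Members were described with every array's value if called in any comparison, with or without the block, or if groups did not overlap and differed by at least 1. The lists were Hox cofactors, upstream regulators, kidney partners and targets, noncoding transcripts, neighbouring genes and markers of 13 cell types. Values of some listed genes are not reported here. The members and lists were chosen with earlier results of these data known. Alternatives covered scaling, background, filter, probe choice, blocks, arrays in the fit and leaving out arrays. The number of arrays limits the precision.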

Additional observations from a re-analysis of the deposited data

Results flagged for a closer look

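Hoxb1 differed between the altered genotypes under the same contrast against controls: it was higher in nulls by 3.97 and in the fusion genotype by 1.05, and the direct test of fusion minus null gave -2.92 (SE 0.32, limma's adjusted p = 0.00682). The fusion arrays, at -4.56 and -4.92, lay between the controls and the nulls. The fusion arrays have another slide and array design, which cannot be told apart from genotype.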

How the results depend on the processing

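Of 332 comparisons of a described member's difference with an alternative, 295 kept their side of the threshold, 27 passed it newly, 10 lost it and 0 reversed. Members called in nulls against controls numbered 0 without the pair block. The count was 1, Hoxb1, with no filter, where 1 of 29770 genes was called, and with the stricter filter, where 15 of 18521 were. Hoxb1 was also the 1 member with the slide as a block, where 6 of 19522 genes were called. So it was under a median scaling chosen after seeing the data, where 1 of 19522 was called. The count was 2 with all 8 arrays in the fit, where 65 of 20398 genes were called. With the replicate block it was 5, where 184 of 19522 were called. In blocked fits that left out a pair, also chosen after seeing the data, it was 1 without pair 1, 1 without pair 2 and 8 without pair 3. Over all genes, those fits called 15 of 19126, 11 of 18483 and 903 of 18617, in that order. Leaving out each array gave 0 to 1, where 0 to 3 of all genes were called. For the fusion genotype against controls the count was 3, where 1089 of 20398 genes were called. It was 4 under quantile normalization and 4 with the authors' deposited values, where 1169 and 1124 genes were called. Under the replicate block it was 5, which added Hoxb3 and Hoxd13 and called 3597 genes. When a control or null array was left out it was 2 to 4, where 297 to 1918 genes were called. Without either fusion array, 1 array was left in the group, and these calls were lost together with most calls over all genes. Against nulls the count was 1, where 750 of 20398 genes were called. It was 2 under quantile normalization and 2 with the authors' deposited values, where 768 and 789 genes were called. It stayed 1 when a control or null array was left out, where 170 to 813 genes were called. Without either fusion array it was lost, with nearly all calls over all genes. Under the replicate block it was 3, which added Hoxa2 and Hoxa3 and called 3254 genes. The median over members there moved from 0.16 to -0.02 under that block. The block is a check only for the fusion arrays, whose numbers do not pair. The cause of these shifts was not tested. The Hoxb1 difference in nulls ranged from 2.32 with normexp background to 4.20 without null array 1. Signal near background in control 1 limits its size.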

Other observations

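The second Hoxd11 probe varied across pools in another direction than the brighter one. It was at 2.49, 1.35 and 1.11 in controls and at 2.44, 0.87 and 0.63 in nulls, so pair 1 was high, whereas the brighter probe was highest in pair 2. Neither Hoxd11 probe was called in nulls with or without the block, or in the fusion genotype without it. With each probe tested on its own and the replicate number as a block, the second probe passed against controls in the fusion genotype, with limma's adjusted p = 0.0423.

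Of 24 tested protein-coding neighbours of the clusters, 18 had a higher mean in nulls, with a median of 0.04. Of 16 noncoding transcripts of the clusters, 6 were on the arrays and 5 were tested, 2 higher and 3 lower in nulls. Within 500 kb of clusters A, C and D the flanking probes had median null differences of 0.12, 0.06 and 0.09. Gm14424, within cluster D, differed by -1.63 between the fusion genotype and controls, with limma's adjusted p = 0.0163, and was chosen after its value was seen.

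Limb bud, cloacal, gonadal and white blood cell markers were also listed. In nulls their tested members numbered 2, 1, 4 and 2, with median differences of -0.27, 0.61, -0.47 and 1.04, and none was called without the block. With it, 1 gonadal marker was called lower. Renal stroma markers had a lower mean for 4 of 5, with a median of -0.44 and 1 called higher with the block, and platelet markers had a median of 2.09 over 2 tested.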
